A study of Gallus gallus with 4 samples.

Results

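The aquaporins measured in the gonads of adult chickens are described here as 10 genes with 16 probe sets, taken as every probe set whose platform symbol is AQP followed by a number, out of 13009 genes with a symbol. The genes were AQP1, AQP2, AQP3, AQP4, AQP5, AQP7, AQP8, AQP9, AQP11 and AQP12A. The samples were whole ovaries and whole testes of 17-week-old chickens of CB congenic lines, inbred chickens of White Leghorn descent. Equal amounts of RNA from 4 animals at a time, out of 8 females and 8 males, went into 2 ovary pools and 2 testis pools. The 4 pools were read on an Affymetrix Chicken Genome Array each, a short-oligonucleotide array on which a set of probes reports a transcript. No treatment or genetic change is given in the labels, and no level of a single animal can be read from a pool. Levels are given as the deposited log2 values, on which a step of 1 is a doubling.

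Aquaporins are channel proteins of cell membranes that belong to the major intrinsic protein family. Each opens a narrow pore through which water follows an osmotic gradient, and the aquaglyceroporins, among them AQP3, AQP7 and AQP9, pass glycerol as well. In mammals AQP7 is known from spermatids and sperm and from fat cells, where it lets glycerol out, AQP1 from red blood cells, capillary endothelium and the ducts that take up fluid after sperm leave the testis, and AQP3 from the membranes of epithelial cells.

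The gonads differed in which aquaporins were above background. AQP7 was bright in both testis pools and at background in both ovary pools, AQP3 was above background in both ovary pools and in neither testis pool, and AQP1 was bright in both organs and brighter in ovary. AQP9 had a dim, equal signal in all 4 pools. The other 6 genes had no probe set above background in any pool. The background level was log2 3.32, the 99th percentile of 687 probe sets for sequences that are not chicken genes by their names. The members were selected on their symbols, and the family was chosen by its values in this testis against ovary contrast, so their levels and differences are given as a description with no test.

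**Figure D1:**
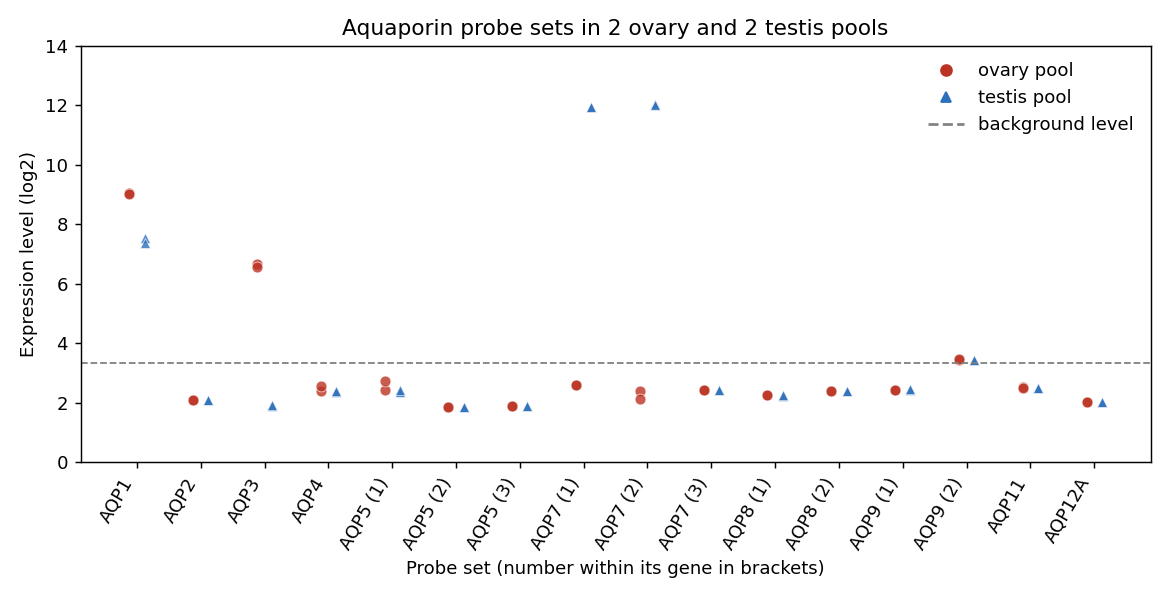
Expression level (log2) of the 16 aquaporin probe sets, with circles for the 2 ovary pools, triangles for the 2 testis pools and a dashed line at the background level of 3.32. The 2 bright AQP7 probe sets stand near 12 in testis and below the line in ovary, AQP3 is above the line in ovary alone, and AQP1 is above it in both organs.

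AQP7, an aquaglyceroporin, had the widest gap of the family between the organs. Its brightest probe set read 11.93 and 11.95 in the testis pools and 2.60 and 2.60 in the ovary pools. The testis pools lay 9.33 above the nearest ovary pool, while pools of the same organ differed by at most 0.015. With n = 2 pools per organ, the mean ± SD was 11.94 ± 0.011 for testis against 2.60 ± 0.00083 for ovary, and testis minus ovary was 9.34 (SE 0.019). Each SE here is the moderated SE of the limma fit, which draws on the spread of all probe sets besides that of the probe set itself. Because ovary was at background, the fold is a lower bound, at least 392-fold against the background level and at least 490-fold against the 95th percentile of the same probe sets.

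A second AQP7 probe set behaved alike. It read 12.05 and 12.03 in the testis pools and 2.38 and 2.10 in the ovary pools, at least 420-fold apart. Its ID is that of the brightest with a suffix for probes shared by several transcripts, so the pair may overlap and is not 2 independent measurements of AQP7. The third was at background everywhere, with 2.42 and 2.42 in ovary and 2.41 and 2.42 in testis. AQP7 is thus represented by probe sets that disagree in testis, and averaging all 3 gave a difference of 6.38. Which stretch of AQP7 each of them covers was not checked here.

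AQP3, an aquaglyceroporin, was on the ovary side. Its only probe set read 6.66 and 6.56 in the ovary pools and 1.89 and 1.91 in the testis pools. The nearest pools of the organs were 4.65 apart and pools of the same organ at most 0.11. The mean ± SD of n = 2 pools was 6.61 ± 0.076 for ovary against 1.90 ± 0.010 for testis, and testis minus ovary was -4.71 (SE 0.050). With testis at background, AQP3 was at least 9.76-fold higher in ovary, or at least 12.2-fold against the lower background level.

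AQP1, a channel for water, was measured well above background in both organs. It read 9.04 and 9.01 in the ovary pools and 7.53 and 7.36 in the testis pools, with no overlap. The nearest pools of the organs differed by 1.48, against at most 0.18 within an organ. The mean ± SD of n = 2 pools was 9.02 ± 0.019 for ovary against 7.45 ± 0.13 for testis. Testis minus ovary was thus -1.58 (SE 0.079), or 2.99-fold higher in ovary. In whole organs, fewer cells of a type that expresses AQP1 and less AQP1 RNA per cell cannot be told apart, and the same holds for AQP3 and AQP7.

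AQP9, the aquaglyceroporin known from mammalian liver and white blood cells, had 2 probe sets. The brighter read 3.42 and 3.45 in ovary and 3.42 and 3.44 in testis, just above the background level. These values lay below the brightest probe set for other sequences on every array, at 3.82 to 3.97, so they do not show AQP9 to be expressed. The pools of the organs overlapped, and testis minus ovary was -0.0097 (SE 0.023). The other AQP9 probe set was at 2.43 in both ovary pools and at 2.43 and 2.44 in testis, below background.

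The other members had no reading above background. AQP2, in mammals the vasopressin-regulated channel of the kidney collecting duct, read 2.09 and 2.09 in ovary and 2.07 and 2.09 in testis. AQP4, the main water channel of mammalian astrocytes, read 2.37 and 2.57 in ovary and 2.35 and 2.37 in testis. AQP5, known from mammalian gland epithelia, had 3 probe sets below background, and its brightest read 2.41 and 2.73 in ovary and 2.37 and 2.41 in testis. For AQP4 and this AQP5 probe set, ovary pool 2 was the high value and the other 3 pools were close together. The other AQP5 probe sets read 1.84 to 1.89 in all pools.

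AQP8, which in mammals also passes ammonia and hydrogen peroxide, read 2.40 and 2.38 in ovary and 2.37 and 2.39 in testis on its brighter probe set. Its second probe set read 2.24 and 2.24 in ovary and 2.21 and 2.24 in testis. AQP11, a channel of intracellular membranes, read 2.51 and 2.48 in ovary and 2.47 and 2.49 in testis. AQP12A, known from the mammalian exocrine pancreas, read 2.02 and 2.02 in ovary and 2.03 and 2.02 in testis. These genes gave the same readings in all 4 pools to within a few hundredths. Across the 11 aquaporin probe sets at or below background in all 4 pools, values ran from 1.84 to 2.73 and testis minus ovary from -0.18 to 0.0065, within 0.05 of 0 for 9 of them. A value at background is a bound, and does not show the gene to be silent in every cell of the organ.

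Of the 16 aquaporin probe sets, 2 (both of AQP7) were higher in testis by limma's moderated test at an adjusted p under 0.05, which called 17.4% of all 38382 probe sets in that direction. On the ovary side 2 were called, AQP1 and AQP3, where 18.2% of all probe sets were. The pools of the organs did not overlap for 6 of the 16 aquaporin probe sets, against 70% of all probe sets. Among the 6 were AQP4 and the brightest AQP5 probe set, below background in all pools, with nearest pools 0.00068 and 0.0014 apart. Both testis pools but no ovary pool were above background for 2 aquaporin probe sets (3.61% of all probe sets), and both ovary pools but no testis pool for 1 (3.3% of all). The median difference was -0.0084 over the aquaporin probe sets and -0.0093 over all. No inference is drawn from these counts, since the contrast came with the choice of the family.

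AQP7 and AQP3 lie side by side on chromosome Z, with 1 gene, PINLYP, between them in the gene order of assembly GRCg7b. Chicken males carry a pair of Z chromosomes and females a single copy beside the W. AQP7 was at least 392-fold higher in testis and AQP3 at least 9.76-fold higher in ovary, so the neighbours went opposite ways. The AQP3 probe set and the AQP7 probe sets share a number in their IDs. Which of these genes each reports is taken from the annotation, and the sequences they cover were not checked here. The median difference of 609 Z-linked genes was 0.39 toward testis, against -0.017 for 12378 autosomal genes. Of the Z-linked genes 41.4% were called higher in testis, the side of AQP7, and 16.6% higher in ovary, the side of AQP3.

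**Figure D2:**
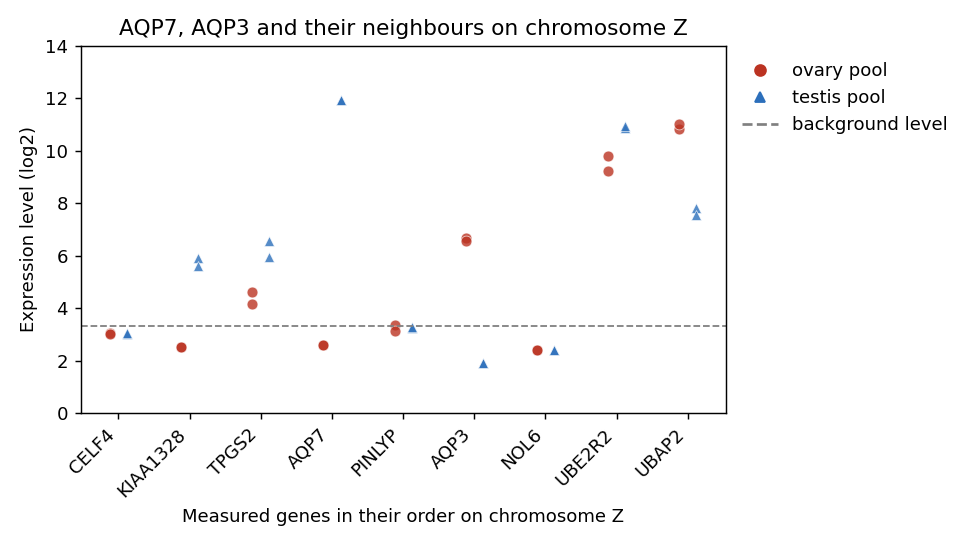
Expression level (log2) of AQP7, AQP3 and the measured genes beside them in their order on chromosome Z, with circles for ovary pools, triangles for testis pools and a dashed line at background. PINLYP, between AQP7 and AQP3, lies close to the line in all 4 pools, with ovary pool 1 (3.36) just above it and the others below.

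The 3 measured genes on either side of AQP7 and of AQP3 comprised 7 genes that are not aquaporins. Of these, 3 were higher in testis and 1 in ovary by limma, and 3 did not pass. These counts are near the shares of all Z-linked genes, 41.4% called higher in testis and 16.6% in ovary. Higher in testis was KIAA1328, at least 5.41-fold (adjusted p = 0.00255 by limma). TPGS2, which encodes a subunit of the complex that adds glutamate chains to tubulin, was 3.63-fold (adjusted p = 0.0424) and UBE2R2, a ubiquitin-conjugating enzyme gene, 2.62-fold higher in testis (adjusted p = 0.0385). UBAP2 was 9.43-fold higher in ovary (adjusted p = 0.00347). PINLYP (0.0082, adjusted p = 0.976), NOL6 (-0.0011, adjusted p = 0.983) and CELF4 (-0.0091, adjusted p = 0.853) did not pass. The call of TPGS2 ended with any single pool left out (adjusted p = 0.0853 to 0.162), and that of UBE2R2 without testis pool 1 (0.229) or testis pool 2 (0.207). AQP2 and AQP5, both at background, are direct neighbours on chromosome 34. AQP1 and AQP4 are both on chromosome 2 but not near each other in the gene order, and AQP8, AQP9, AQP11 and AQP12A are on 14, 10, 1 and 9.

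The genes most like each of the 3 differing aquaporins were taken as those with the lowest root mean square difference of log2 value over the 4 arrays, among 12525 genes without placeholder names. Levels of different probe sets are not amounts of RNA on a common scale, so this is a likeness of readings. Nearest to AQP7 were TMPRSS12 (0.056), the tektin gene TEKT3 (0.19) and TRIM42 (0.22). Nearest to AQP3 were LGR6 (0.15), SOHO1 (0.21) and CDH19 (0.22). Nearest to AQP1 were RNF216 (0.069), COTL1 (0.079) and TOM1 (0.089).

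The organs carried the markers of their own germ cells. All 7 measured oocyte markers, such as GDF9, were higher in ovary, and 8 of 9 spermatid markers, such as ACR, were higher in testis by limma, where 28.7% and 24.3% of all 13009 genes were called. The granulosa and Sertoli lists were mixed. Of 7 granulosa markers 5 were higher in ovary and 1, INHA, in testis. Of 7 Sertoli markers 4 were higher in testis and 2, AMH and FSHR, which are on both lists, in ovary. On both lists fewer markers were called higher in ovary with any single pool left out. The INHA call ended without either testis pool. With a pool left out, 4 to 6 oocyte markers were called, the lowest count being that without testis pool 2. Leaving out pools for the marker lists and the neighbours on Z was chosen after seeing the data. Fewer of all probe sets were called in both directions with any single pool left out. Falls in such counts are thus not read as particular to any list, here or below. Arrays differed little in the share of probe sets above background, 55.1% to 55.7%, and pools of an organ correlated across probe sets at r = 0.991 in ovary and 0.995 in testis.

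The spermatid markers, beside which AQP7 was bright, had a mean log2 level of 12.55 and 12.56 in the testis pools and 3.23 and 3.24 in the ovary pools. None of the 9 was at background in all pools, and 8 or 9 were called higher in testis with a pool left out. Fat cell markers, of the other known site of AQP7, had lower mean levels in testis. Of 7 measured, 3 were called on the ovary side, FABP4, LPL and CIDEC, where 28.7% of all genes were. On the testis side 0 were called, where 24.3% of all genes were. The other 4 did not pass. Of these, LEPR (testis minus ovary 3.23), ADIPOQ (0.40) and PPARG (0.32) lay toward testis, and PLIN1 (-1.09) toward ovary. The mean levels of the 7 were 6.66 to 7.40 in ovary and 5.18 to 5.20 in testis. Without ovary pool 1, 2 fat cell markers were called higher in testis, and without ovary pool 2, 1 was. The part of spermatids in the AQP7 signal was not tested.

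Endothelium is a known site of AQP1 in mammals. Of 11 endothelial markers measured, 5 were called on the ovary side, where 28.7% of all genes were, 1, PECAM1, on the testis side, and 5 did not pass. Their mean levels were 6.45 to 6.46 in the ovary pools and 4.71 to 4.82 in the testis pools. FLT1 and ESAM were at background in all pools. Red blood cell markers had mean levels of 5.91 to 6.28 in ovary and 4.22 to 4.47 in testis. Of 9 measured, 3 (33.3%), HBA1, HBAD and HEMGN, were higher in ovary, near the 28.7% of all genes. On the testis side 0 were called, where 24.3% of all genes were. HBE, HBZ, RHAG and EPB42 were at background. With a pool left out, 3 to 7 endothelial markers were higher in ovary, 7 without ovary pool 1 or without ovary pool 2, and 3 without testis pool 1 or without testis pool 2. No endothelial marker, PECAM1 included, was called higher in testis in any of these 4 fits. Fewer red blood cell markers were called higher in ovary without testis pool 1, testis pool 2 or ovary pool 1. Without testis pool 2 a red blood cell marker was called on the testis side. The part of endothelium and blood in the AQP1 difference was not tested.

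Epithelial markers were of interest for AQP3. Of 8 measured, 4 were called on the ovary side, EPCAM, CDH1, KRT7 and MUC1, where 28.7% of all genes were. On the testis side 0 were called, where 24.3% of all genes were. The other 4 did not pass. Of these, CLDN4 (testis minus ovary -0.011) and MSLN (0.028) were nearly equal in the organs, and UPK3A was at -0.80. The mean levels of the 8 were 6.89 to 6.92 in the ovary pools and 4.64 to 4.79 in the testis pools. CLDN3 was at background in all pools. The count was 2 without testis pool 1 and 3 with any other pool left out. The part of epithelial cells in the AQP3 level was not tested. Kidney tubule markers, of interest for AQP2, had 1 of 7 called, UMOD, higher in testis, with PAX2 at background. Of 9 nerve and glia markers, of interest for AQP4, 5 were higher in ovary and 2 in testis, and GFAP alone was at background. The shares of all genes given above hold as the background for the kidney and nerve lists too.

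**Figure D3:**
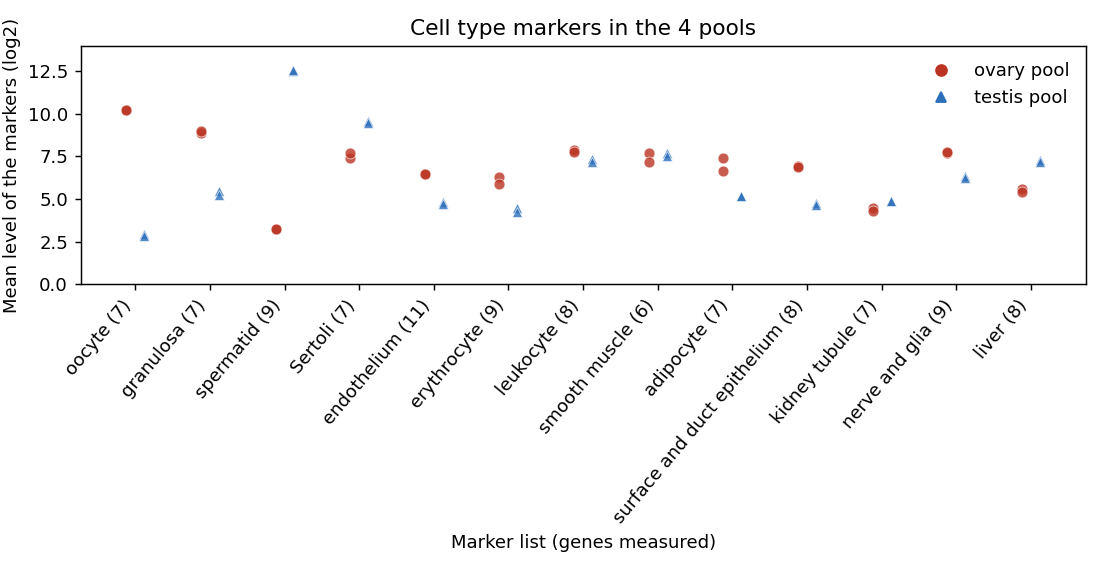
Mean log2 level of the measured markers of each cell type, with circles for ovary pools and triangles for testis pools and the number of genes in brackets. Most lists differ between the organs. The means of oocyte, granulosa, endothelial, red blood cell, leukocyte, fat cell, epithelial and nerve and glia markers lie higher in ovary. Those of spermatid, Sertoli, kidney tubule and liver markers lie higher in testis. Single members of a list can go the other way, and of 7 kidney tubule markers only 1, UMOD, was called.

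The pathways in which aquaporins act were then compared by limma, with p-values adjusted over all 38382 probe sets. Glycerol is a solute of AQP3 and AQP7. Of 24 measured genes of glycerol and triglyceride handling, 8 were called on the testis side (33.3%) and 9 on the ovary side (37.5%). The other 7 did not pass. Over all 13009 genes 24.3% were called on the testis side and 28.7% on the ovary side, which holds as the background for the other pathway lists too. The median difference of the list was -0.027, against -0.015 over all genes. GK2, a glycerol kinase gene, read 13.15 and 13.22 in the testis pools, where AQP7 was bright, and 3.80 and 4.61 in the ovary pools. It was 505-fold higher in testis (adjusted p = 0.00259), with 3 of its 3 probe sets called. The size of this fold is uncertain, since the ovary level is dim and its pools differ. Ovary pool 1 lay below the brightest probe set for other sequences on its array (3.90). GK5 (6.34-fold, adjusted p = 0.00511), GPD2, the mitochondrial glycerol-3-phosphate dehydrogenase gene (5.35-fold, adjusted p = 0.00136, 1 of 4 probe sets called), and GPAM (4.63-fold, adjusted p = 0.00127) were higher in testis too. On the side of AQP3 and AQP1 were PLIN3, which coats lipid droplets (40.7-fold, adjusted p = 0.00526), AGPAT2 (26.5-fold, adjusted p = 0.00845), LPL, which releases fatty acids from lipoproteins (20.2-fold, adjusted p = 0.000695), and AGPAT3 (14.3-fold, adjusted p = 0.00405). Without testis pool 1 or testis pool 2 the counts fell to 3 and 5, and the calls of GK2 (adjusted p = 0.0522 and 0.0536), GK5 (0.0771 and 0.0783) and AGPAT3 (0.0658 and 0.0681) ended.

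**Figure D4:**
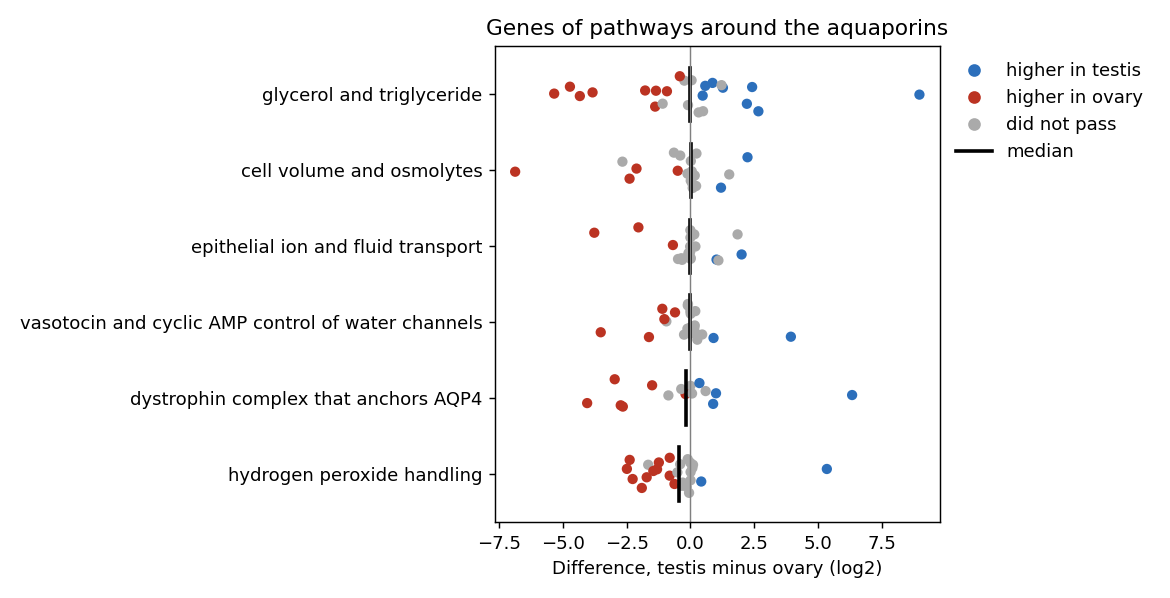
Difference, testis minus ovary (log2), of each measured gene of 6 pathways around the aquaporins, coloured by limma call, with a bar at each median. The medians farthest from 0 are those of the hydrogen peroxide genes (-0.46) and the dystrophin complex (-0.19), and GK2 at 8.98 is the point farthest toward testis.

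In cell volume and osmolyte control, 2 of 20 genes were higher in testis, LRRC8C (4.71-fold, adjusted p = 0.0269) and SLC12A2 (2.29-fold, 0.0119), and 4 in ovary, SLC12A7 (118-fold, 0.00389), SLC12A4 (5.24-fold, 0.00689), AKR1B1 (4.34-fold, 0.00173) and WNK1 (1.41-fold, 0.0443). The WNK1 call ended with robust moderation (0.0522), quantile normalization (0.0721) and floors at background (0.0753 and 0.0774), and by the mean of its probe sets WNK1 was 0.92 toward testis (0.342). In epithelial ion and fluid transport 2 of 21 were higher in testis, ATP12A (4.01-fold, 0.00394) and SCNN1A (2.03-fold, 0.0122), and 3 in ovary, SLC9A3R1 (13.7-fold, 0.0176), CA9 (4.12-fold, 0.00311) and CA2 (1.61-fold, 0.0464). SCNN1A read 3.87 in ovary pool 1, below the brightest probe set for other sequences on its array, at 3.90. Among genes of vasotocin and cyclic AMP signalling, which in mammals moves AQP2 to the membrane, 2 of 22 were higher in testis, AKAP13 (15.3-fold, 0.0053) and AKAP7 (1.87-fold, 0.00782). In ovary 5 were, among them VAMP2 (at least 9.64-fold, 0.035), ADCY9 (3.09-fold, 0.00854), ADCY3 (at least 1.5-fold, 0.0246) and PRKACB (2.03-fold, 0.013). ADCY3 read 3.92 and 3.90 in ovary, and ovary pool 2 lay below the brightest probe set for other sequences on its array, at 3.97. AVP and the receptors AVPR1A, AVPR1B and AVPR2 were at background, as AQP2 was. OXTR, a further receptor gene of the list, was above background in all pools. It read 4.38 and 4.30 in ovary and 4.69 and 4.53 in testis and was not called (0.111). Of the dystrophin complex that anchors AQP4 in mammals, 4 of 15 were higher in testis, DTNB (at least 79.6-fold, with 1 of 2 ovary pools above background, 0.00882), UTRN (2-fold, 0.00782), LAMA2 (1.85-fold, 0.0218) and SGCB (1.28-fold, 0.0256), and 6 in ovary, among them SGCD (16.6-fold, 0.00812), SNTG2 (at least 3.77-fold, 0.00271), SNTB1 (6.66-fold, 0.00162) and AGRN (6.29-fold, 0.0127). Of LAMA2's 5 probe sets 3 were called the other way, and of UTRN's 6 probe sets 1 was. By gene means both turned to ovary, LAMA2 at -2.40 and UTRN at -0.29 testis minus ovary on the log2 scale. Among genes that handle hydrogen peroxide, which AQP3 and AQP8 pass in mammals, 2 of 26 were higher in testis, CYBB (at least 25.7-fold, 0.00286) and SOD2 (1.34-fold, 0.0412), and 11 in ovary, among them NOX4 (5.63-fold, 0.00728), SOD3 (5.22-fold, 0.00383), PRDX3 (4.82-fold, 0.00144) and PRDX1 (3.75-fold, 0.00464). All bracketed values in this paragraph other than folds are limma adjusted p. Some named genes rested on part of their probe sets. Called were 1 of 4 for WNK1 and ATP12A, 1 of 5 for AKAP7 and 1 of 3 for AGRN. For SLC12A4 2 of 5 were called, for SLC12A7 and SGCD 2 of 4, and for LRRC8C, ADCY9, SNTG2 and NOX4 1 of 2. MIP, the lens member of the aquaporin family that lacks an AQP symbol, was at background in all pools (2.48 to 2.50).

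These smaller counts changed when a pool was left out. Fewer of all probe sets were then called in both directions too, as the closing section gives. The changes are thus not read as particular to these lists. Without testis pool 1 and without testis pool 2 the testis-higher counts were 1 and 0 for cell volume, 1 and 1 for ion transport, 1 and 0 for vasotocin, 1 and 1 for the dystrophin complex and 0 and 0 for hydrogen peroxide, and the ovary-higher counts 1 and 0 for ion transport, 3 and 3 for vasotocin and 7 and 6 for hydrogen peroxide. Without ovary pool 1 the testis-higher counts were 4 for ion transport, 2 for the dystrophin complex and 1 for hydrogen peroxide, and without ovary pool 2 they were 1, for cell volume, 2, for the dystrophin complex, and 1, for hydrogen peroxide. The ovary-higher count for vasotocin was 3 without ovary pool 1 and 3 without ovary pool 2. Of the 39 named pathway genes, 14 were called in all 4 fits that left out a pool. They were GPD2, GPAM, PLIN3, AGPAT2, LPL, SLC12A7, SLC12A4, AKR1B1, ATP12A, ADCY9, SGCD, SNTB1, PRDX3 and PRDX1. The calls of the other 25 ended in at least 1 such fit, at adjusted p from 0.0502 to 0.232.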

How the data were processed

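Per the labels, the authors made 4 pools of total RNA and hybridised 1 array per pool. The deposited table holds a log2 expression level for each probe set. Per the submitters' processing notes, GCRMA and MAS5 were involved, but the sources used here give neither role nor version. The authors checked the arrays with affyPLM, per the series design. The deposited values were used with no further normalization.

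Of 38535 probe sets, 153 controls were left out and 38382 tested with limma 3.58.1 in R 4.3.3 (lmFit, eBayes, two-sided, 2 residual and 0.741 prior degrees of freedom), with Benjamini-Hochberg adjustment over all of them and a threshold of 0.05. The method was also run on normal data simulated with the spread that the fit itself estimated. Such data meet the assumptions of the method, so the run cannot show how it performs on these pools. Symbols came from the platform annotation, updated by gene number through a GRCg7b gene table, which matched all 16 aquaporin probe sets and 26853 of 27168 single-gene probe sets. For a gene with several probe sets, that of the highest mean level stands for it. Where an organ was at background in both pools or in its mean, folds are lower bounds against the background level.

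Only the spread between pools enters the p-values, and having 4 arrays limits the precision. The smallest p an exact permutation test could give with 2 pools per organ is 0.333. With a pool left out, the lone pool is assumed to vary like those of the other organ. Of each pathway list, up to 4 called genes per direction were named. The aquaporins, the pathway and marker lists, the background level and the tests were chosen with earlier results of these data known. No sequences of the members were used here. The closing section gives the alternatives: filters on dim probe sets, variance trend, robust moderation, scaling, centring, floors, pool number as a block, single pools left out and gene means.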

Additional observations from a re-analysis of the deposited data

How the results depend on the processing

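AQP1, AQP3 and AQP7 kept their direction under every alternative run. Leaving out a pool could not turn it, since the pools of the organs did not overlap on the probe sets that stand for them. A floor could not either, since the brighter organ was above background. With any single pool left out, testis minus ovary ranged from -1.67 to -1.49 for AQP1, -4.77 to -4.66 for AQP3, 9.33 to 9.34 for AQP7 and -0.023 to 0.0038 for AQP9. Quantile normalization gave 9.31 for AQP7 and -0.052 for AQP9, and median centring gave -4.78 for AQP3, 9.27 for AQP7 and -0.079 for AQP9. Setting values below background to that level brings the dim organ up by construction, and gave -3.29 for AQP3 and 8.62 for AQP7, or -3.61 and 8.94 at the 95th percentile. The mean of all AQP7 probe sets was 6.38, since it includes the probe set at background. With a pool left out, 4053 to 6007 of all probe sets were higher in testis and 3734 to 6449 in ovary.

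Counts of the pathway lists moved as well, and the cause was not tested. With a pool left out, testis-higher and ovary-higher genes ranged from 3 to 6 and 5 to 9 (glycerol), 0 to 2 and 3 to 5 (cell volume), 1 to 4 and 0 to 3 (ion transport), 0 to 2 and 3 to 3 (vasotocin), 1 to 2 and 4 to 5 (dystrophin complex) and 0 to 1 and 6 to 10 (hydrogen peroxide). Testis-higher counts were 4 for ion transport with dim probe sets left out or median centring. They were 1 for hydrogen peroxide with quantile normalization, median centring, either floor or the replicate block, and 1 for cell volume with either floor. By gene means they were 4 for cell volume and 2 for the dystrophin complex. The differences of WNK1, UTRN and LAMA2 turned by gene means, to 0.92, -0.29 and -2.40. Apart from pools and block, 30 of 39 named pathway genes kept their call under every alternative. Calls of CA2, SOD2, LRRC8C, VAMP2, SGCB, WNK1 and AKAP7 ended under robust moderation, quantile normalization, centring, a floor or gene means. Their limma adjusted p ran from 0.0516 to 0.113. This range leaves out the differences that turned by gene means, that of WNK1 among them.

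Pool numbers name different animals in the organs. Deviations of same-numbered pools correlated at 0.052 across probe sets. This single value cannot show whether same-numbered pools shared a batch or handling, which was not tested. With the replicate block, the ovary-higher count for vasotocin was 2, 32 of 39 named pathway genes kept their call, and aquaporin calls were 2 and 2 as before. Where an organ is at background, the arrays give only a bound.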
